A study of Arvicanthis niloticus with 59 samples.

Results

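The genes described here are 10 genes of fatty acid synthesis: Acly, Acaca, Acacb, Fasn, Elovl6, Scd1, Me1, Thrsp, Srebf1 and Pnpla3. They were taken by symbol from a table of 18970 genes, all 10 were present, and each was followed through all 59 RNA-seq libraries. The libraries came from 4 Nile grass rats (Arvicanthis niloticus, a day-active rodent) named T3F, T173F, T426 and T424 in the labels, which describe every biopsy as healthy and untreated and give no age. Animal T3F gave 38 libraries, T173F 12, T426 8 and T424 1, and together they cover 22 labelled organs. The sites compared were the Harderian gland of T3F, the sciatic nerve of T3F and T426, the liver of T426, a library of T3F labelled lung left lobe, and a set of fat depots made of the brown fat and inguinal fat of T3F and the mesentery of T173F. Each library is 1 biopsy of 1 animal. The 3 depots are 3 sites, so their values differ by site as well as by animal.

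Fatty acids are built in the cytosol from acetyl-CoA. Acly splits citrate to supply it, acetyl-CoA carboxylase turns it into malonyl-CoA, and Fasn joins these units into palmitate with NADPH, part of which comes from Me1. Elovl6 lengthens palmitate to stearate and Scd1 puts a double bond into the product, which makes oleate. Srebf1 encodes the transcription factor SREBP-1 that induces many of these genes under insulin, Thrsp is a small protein induced by thyroid hormone and feeding, and Pnpla3 is a lipid droplet protein. In mouse and rat, adipose tissue and liver are the best known sites of this pathway, the Harderian gland behind the eye secretes lipid, and Schwann cells make lipid for myelin.

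Several libraries held genes of a tissue other than their label. The library labelled lung of T3F had albumin (Alb) at 71562 TPM (a level scaled for transcript length and library total), against 54236 TPM in liver T426 and 398 TPM in the library of T3F labelled liver. Sftpc, the surfactant gene of alveolar cells, stood at 3.85 TPM in the library labelled lung and at 23826 TPM in the library labelled liver of T3F. The library labelled liver of T3F was therefore not used as liver, and both are named by their labels. Liver T426 and the library labelled lung are called hepatocyte-rich for their albumin. Adiponectin (Adipoq) stood at 14348 TPM in an adrenal gland library of T173F that the labels list under adipose, together with the adrenal cortex gene Cyp11b1 at 2949 TPM. It stood at 4346 TPM in the kidney artery library of T3F. The sciatic nerve of T426 carried pancreatic acinar genes, with Ctrb1 at 56164 TPM, against 2931 TPM in the sciatic nerve of T3F. Male germ cell markers summed to 22617 TPM in femur, 45164 TPM in hippocampus and 121439 TPM in retina of T426, against at most 121 TPM at the same sites of T3F. These sites are among the 9 with 2 animals that supply the spread for every test. Each count of calls was repeated without these 3 libraries, an alternative chosen after seeing the data. They are the 3 libraries with germ cell genes named below. Male germ cell markers also lay above the fat depots in the sciatic nerve (median log2 fold change 8.49, 0 of 8 called). The nerve libraries stayed in that repeat. Total expected counts ran from 678819 to 41309569 per library, with a median of 16406604.

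The 10 genes were highest together in fat. By the mean of log2(TPM + 1) over the genes, the libraries came in the order adrenal gland labelled adipose (10.68), mesentery (10.55), inguinal fat (9.41), brown fat and kidney artery (8.38 each), Harderian gland (7.87) and sciatic nerve T3F (6.01). The next was the adrenal gland labelled kidney at 5.57, and the lowest was pancreas T3F at 1.21. At the 9 sites with libraries of 2 animals, the animals differed in this mean by 0.11 to 2.71, with a median of 0.60. Neighbours in the order lay closer than that median, except mesentery and inguinal fat, inguinal fat and brown fat, Harderian gland and sciatic nerve T3F, and testis and pancreas T3F at the low end. The 2 sciatic nerves lay 2.23 apart, the second largest difference after pancreas. The pancreas libraries of T173F and T3F were 5.13 apart in Scd1, 3.24 in Fasn and 8.40 in Me1. Both stayed in the main tests and supply part of their spread. In bulk tissue, fewer cells of a type and less RNA per cell cannot be told apart.

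**Figure D1:**
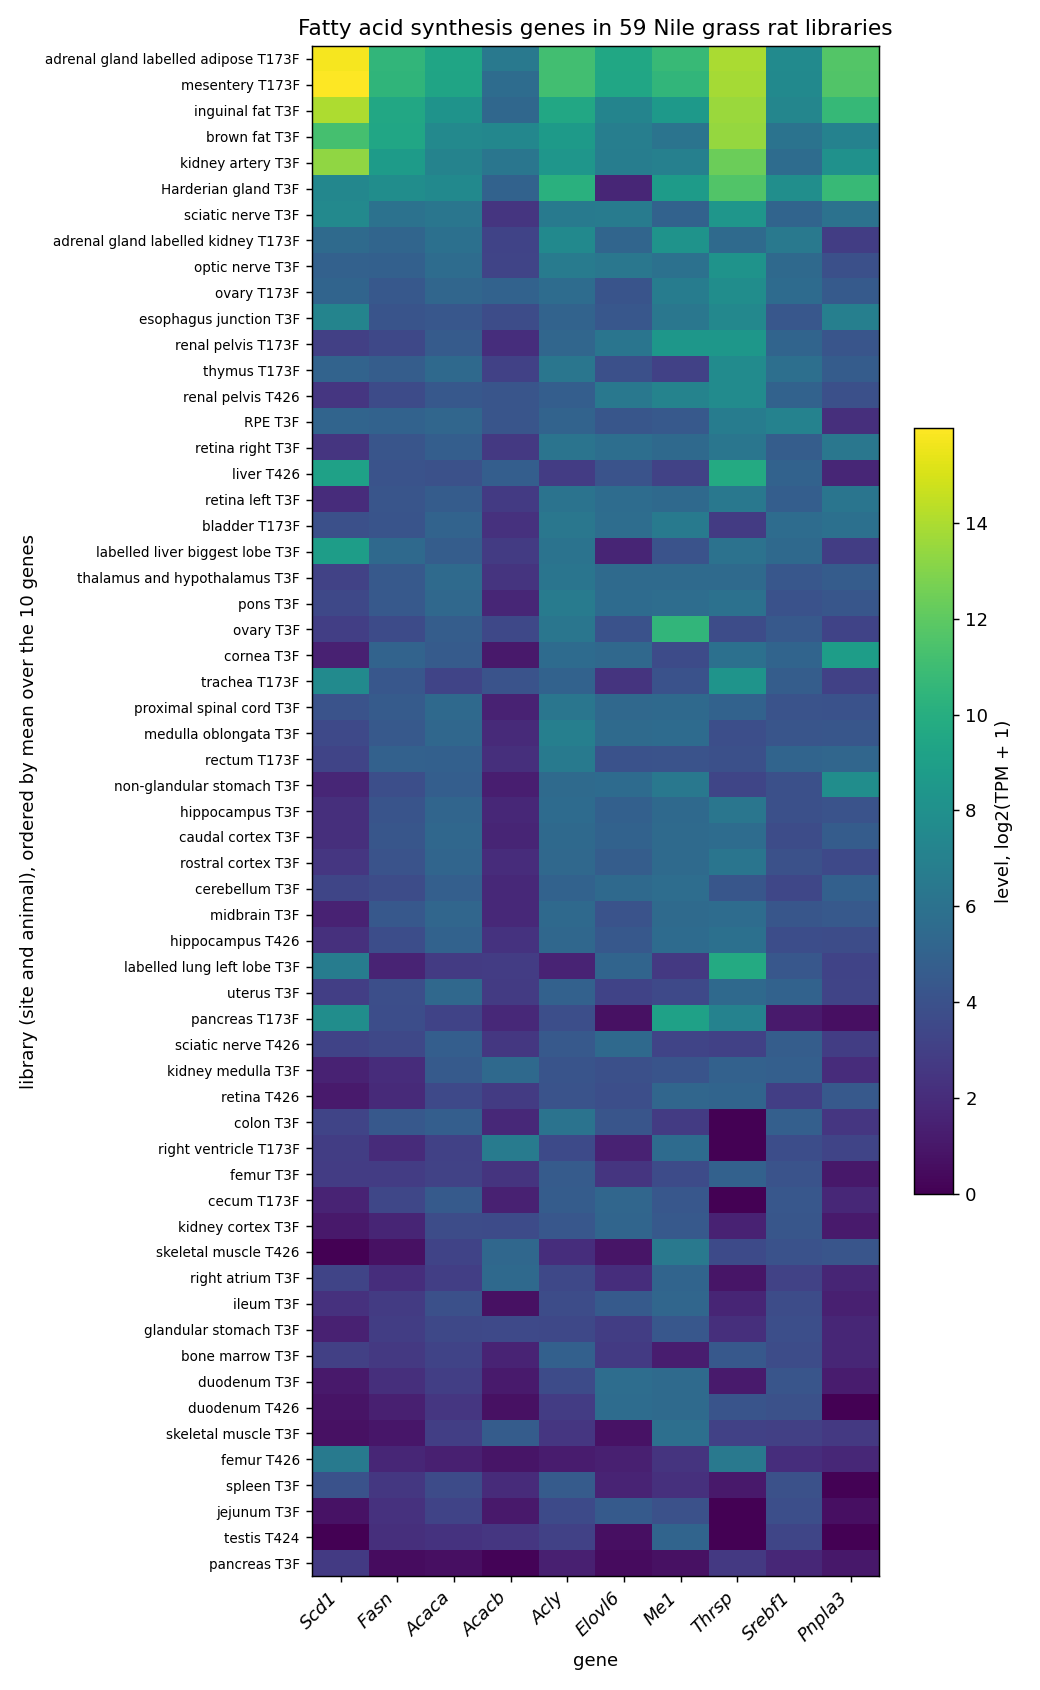
Levels of the 10 genes in 59 libraries as log2(TPM + 1), from 0 (dark) to 16 (bright), with libraries ordered by their mean over the genes. The bright rows at the top are the fat depots, the 2 libraries with adiponectin under other site names and the Harderian gland, where Elovl6 is dark.

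The genes took a large part of the fat transcriptome. They summed to 8.86% of all TPM in mesentery, 3.28% in inguinal fat and 1.53% in brown fat, against 0.729% in the Harderian gland and 0.00181% in pancreas T3F. Scd1 was the most abundant gene of the mesentery, and Thrsp ranked 5 there, 7 in inguinal fat and 6 in brown fat. These ranks depend on length scaling. A level of 1 TPM stood for a median of 16.4 CPM (counts scaled to the library total) for Fasn and 0.0883 CPM for Thrsp, so that Fasn had 278311 counts in brown fat and Thrsp 23086, although Thrsp was the higher by TPM.

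Acly opens the pathway and was high in every depot. It stood at 410 TPM in brown fat, 760 TPM in inguinal fat and 2225 TPM in mesentery, against a median of 36.9 TPM over all 59 libraries. Acaca, the cytosolic acetyl-CoA carboxylase, stood at 182 TPM in brown fat, 297 TPM in inguinal fat and 639 TPM in mesentery, against a median of 25.2 TPM over all libraries. Fasn stood at 715 TPM in brown fat, 763 TPM in inguinal fat and 1380 TPM in mesentery, against an overall median of 15.8 TPM. By TPM, mesentery was the highest depot for these enzymes and brown fat the lowest. On scaled counts brown over inguinal fat had log2 fold changes of 0.69 for Fasn and 0.08 for Acaca. The adrenal gland labelled adipose had slightly more Fasn than mesentery, at 1438 TPM.

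The modifying enzymes spread more widely between depots. Elovl6 stood at 111 TPM in brown fat, 146 TPM in inguinal fat and 695 TPM in mesentery, against an overall median of 22.5 TPM. Scd1 stood at 2439 TPM in brown fat, 16679 TPM in inguinal fat and 64316 TPM in mesentery, against an overall median of 7.94 TPM, and it was listed at 0 in skeletal muscle T426 and testis T424. Scd1 belongs to a family of similar desaturase genes whose reads RSEM divides between them, so its level against Scd2 and Scd3 is uncertain. Me1 stood at 70.0 TPM in brown fat, 381 TPM in inguinal fat and 1464 TPM in mesentery, against an overall median of 44.0 TPM. Brown fat was thus near that median for Me1, whereas the other depots were well above it.

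Among the regulators and accessory genes, Thrsp was the most even across fat. It stood at 11024 TPM in brown fat, 11950 TPM in inguinal fat and 14400 TPM in mesentery, against an overall median of 45.9 TPM. It was listed at 0 in 5 libraries and had under 3 counts in 10, where a count of 0 allows up to 3 counts. Srebf1 stood at 65.6 TPM in brown fat, 163 TPM in inguinal fat and 194 TPM in mesentery, against an overall median of 19.3 TPM. Its highest level was 12.3 times that median, the smallest such ratio of the 10 genes, against 8097 times for Scd1. Pnpla3 stood at 132 TPM in brown fat, 1651 TPM in inguinal fat and 3216 TPM in mesentery, against an overall median of 11.9 TPM.

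**Figure D2:**
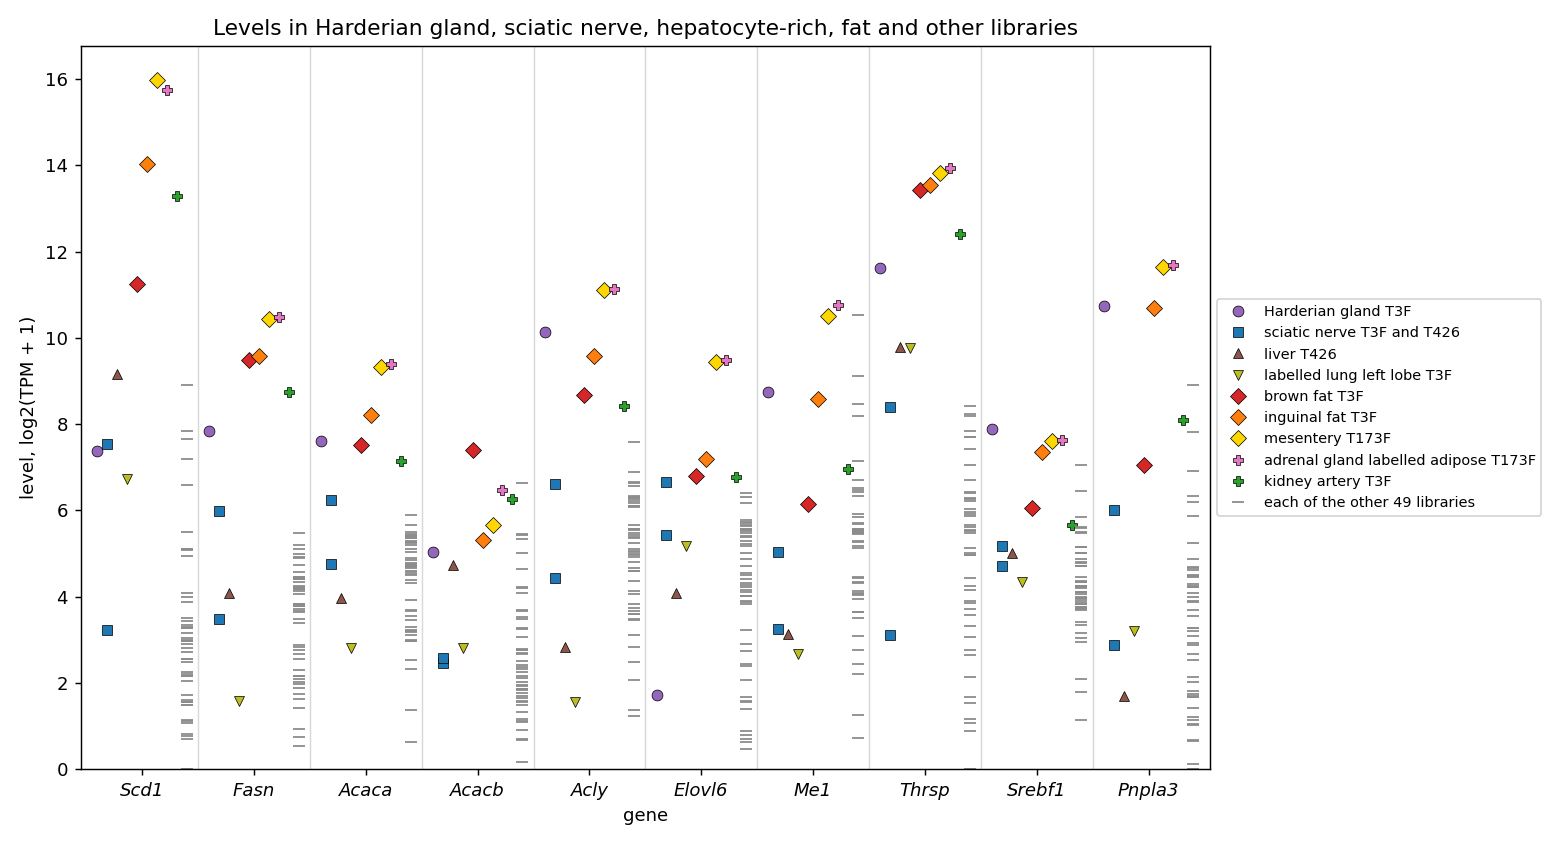
Levels of each gene as log2(TPM + 1), with 1 marker per library: from left to right Harderian gland, sciatic nerve (2 animals), liver T426, the library labelled lung T3F, the 3 fat depots, the 2 other libraries with adiponectin, and the other 49 libraries as grey dashes. Fat lies above nearly all dashes for Scd1, Fasn and Thrsp, the sciatic nerves lie far apart for Thrsp, and the Harderian gland lies below all depots for Elovl6 and Scd1.

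Fat depots were compared with the mean of all other sites on the counts, with edgeR's quasi-likelihood test, the spread being taken from the sites with 2 animals. Calls needed an adjusted p under 0.05 together with a log2 fold change of at least 1 in size. All 10 genes rose in fat, where 7.21% of all tested genes were called higher and 1.0% lower. The log2 fold changes were 10.25 ± 0.55 for Scd1 (SE, adjusted p = 4.59e-08), 6.30 ± 0.37 for Fasn (adjusted p = 1.28e-07) and 4.85 ± 0.34 for Acly (adjusted p = 4.83e-07). For the regulators they were 9.11 ± 0.57 for Thrsp (adjusted p = 2.35e-07), 2.73 ± 0.34 for Srebf1 (adjusted p = 0.000125) and 6.68 ± 0.45 for Pnpla3 (adjusted p = 3.81e-07). Acaca rose by 4.09 ± 0.28, Acacb by 3.79 ± 0.35, Elovl6 by 4.00 ± 0.26 and Me1 by 3.48 ± 0.61. The median over the 10 genes was 4.47, against -0.21 over all genes. The SE was taken from the fold change and the F statistic of the test. It understates the spread of single depots. In the same fit, brown over inguinal fat had SEs of 2.20 for Scd1 and 1.47 for Fasn. All 3 depots are single libraries, assumed to vary like the sites with 2 animals. Me1 was not called without mesentery (2.61, adjusted p = 0.0703) or with limma on log2(TPM + 1) (3.27, adjusted p = 0.103).

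Other genes of lipid synthesis and storage were counted beside them. Falls were hard to call in this test. For some negative folds, as Elovl7 at -3.25 and Mogat1 at -1.95, the F statistic was at its floor. The SE taken from it is then no measure of spread. A count of 0 that fell is thus no result about a list here. Of 24 other genes of fatty acid synthesis and desaturation, 9 rose in fat and 0 fell. They include the desaturases Scd3, by 5.83 on the log2 scale, and Scd2, by 3.50, the elongase Elovl3, by 8.99, and Fads3, by 3.30. Of 9 genes listed under NADPH supply, 4 rose, all in the pentose phosphate pathway. These were Tkt by 4.24, Taldo1 by 2.32, G6pdx by 3.05 and Pgd by 2.71, of which only G6pdx and Pgd make NADPH themselves. Of 19 tested regulators of lipogenesis, 7 rose and 0 fell, among them Mlxipl, which encodes the carbohydrate-responsive factor ChREBP, by 5.08, the adipocyte factors Pparg by 5.91 and Cebpa by 4.95, and the oxysterol receptor Nr1h3 by 2.85. Of 23 tested genes of triglyceride synthesis and storage, 19 rose and 0 fell, with the lipid droplet genes Plin1 by 12.73, Cidec by 10.41 and Plin4 by 5.94 and the lipase inhibitor G0s2 by 5.17. List medians were 0.75 for synthesis and desaturation, 1.20 for NADPH supply, 0.39 for regulators and 3.83 for triglyceride genes, against -0.21 over all genes.

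Brown fat and inguinal fat came from the same animal and differed most in Acacb, Pnpla3, Scd1 and Me1. Acacb, the carboxylase at the mitochondrial outer membrane whose malonyl-CoA restrains fatty acid import, stood at 169 TPM in brown fat and 39.0 TPM in inguinal fat, with 50.03 TPM in mesentery and an overall median of 5.01 TPM. Pnpla3 stood at 132 TPM in brown fat, 0.0798 times its 1651 TPM in inguinal fat. Scd1 in brown fat was 0.146 times and Me1 0.184 times its inguinal level. Fasn and Thrsp were at 0.937 and 0.923 times. The brown fat gene Ucp1 stood at 3399 TPM in brown fat and 496 TPM in inguinal fat. With 1 library against 1, edgeR called 0 genes of any kind, or 0% in either direction, and so 0 of the 10. By edgeR, 392 genes had an unadjusted p under 0.05, with Acacb as the 1 among the 10. Its log2 fold change was 2.89 ± 1.30 (edgeR, adjusted p = 1). DESeq2 called 137 genes and limma on log2(TPM + 1) called 1, and 0 of the 10 in both. The scalings are 0.73 apart here for the median gene with a mean of at least 10 TPM, and 4 genes change sign between them: Fasn (0.69 on counts, -0.09 on TPM), Thrsp (0.66 and -0.12), Acaca (0.08 and -0.70) and Elovl6 (0.38 and -0.39).

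The carboxylase isozymes divided along other lines than fat. Acacb made up 48.1% of Acaca and Acacb together in brown fat, 11.6% in inguinal fat and 7.26% in mesentery. Its share was highest in muscle tissues, at 92.8% in right ventricle, 85.9% in right atrium, and 82.5% and 77.8% in the skeletal muscles of T426 and T3F. It was 66.3% in kidney medulla, 64.4% in trachea, 63.7% in liver T426 and 50.3% in the library labelled lung T3F. In the hippocampus it was 6.11% in T3F and 11.2% in T426, and in the renal pelvis 12.8% in T173F and 47.0% in T426. The 2 renal pelvis libraries thus differ as much as many organs do. Acacb reached 98.4 TPM in right ventricle, second to brown fat, and Acaca only 7.63 TPM there.

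**Figure D3:**
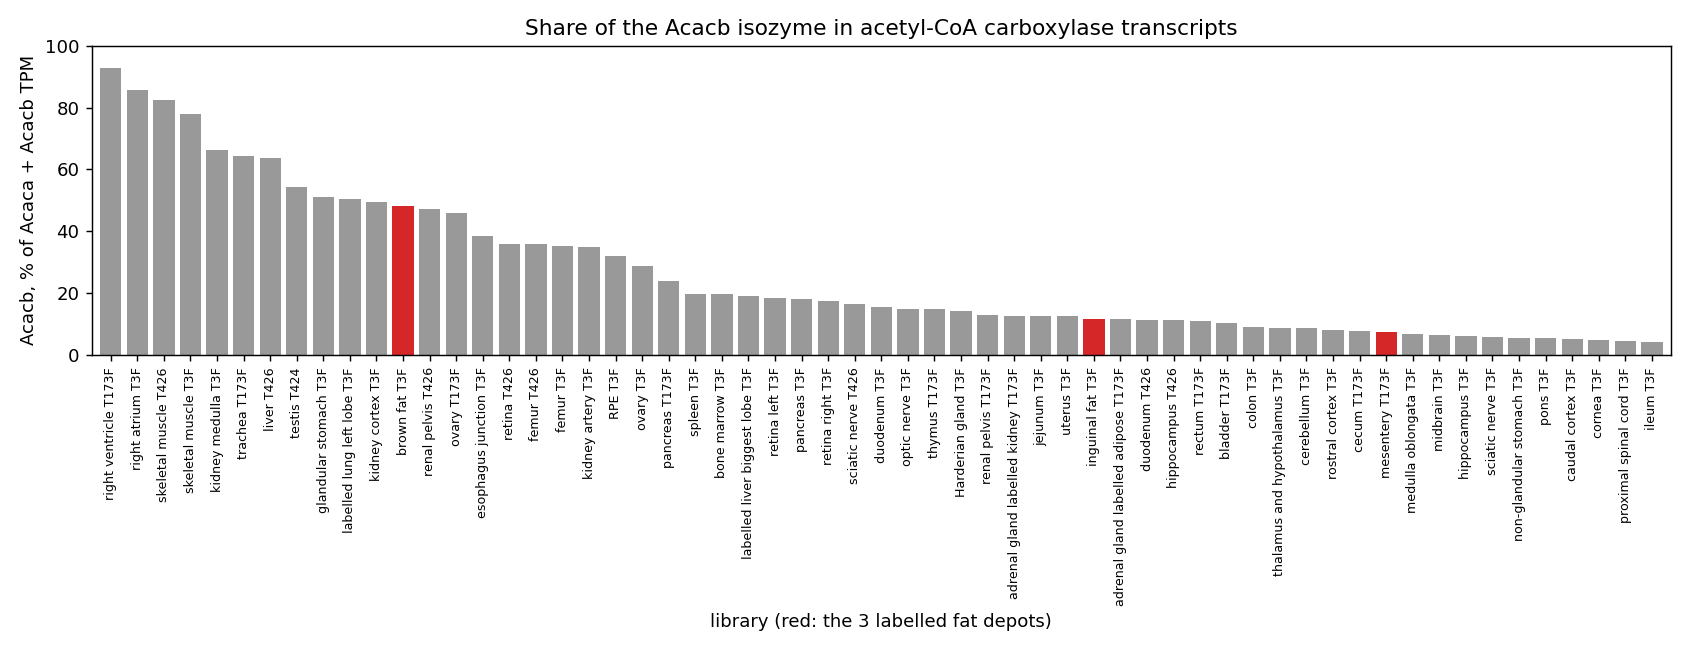
Acacb as a percentage of the summed TPM of Acaca and Acacb in each library, with the 3 fat depots in red. Heart and skeletal muscle hold the highest shares, from 77.8% to 92.8%, and brown fat (48.1%) stands apart from inguinal fat (11.6%) and mesentery (7.26%).

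The Harderian gland had Acly, Acaca, Me1, Srebf1 and Pnpla3 above the level of the lowest depot, and Acacb, Fasn, Thrsp, Scd1 and Elovl6 under that of every depot. Elovl6 stood at 2.29 TPM in the Harderian gland, from 39 counts, against 111 to 695 TPM in the depots. Acly stood at 1127 TPM there, above 2 of the 3 depots, and Pnpla3 at 1713 TPM, likewise above 2 of the 3. Srebf1 stood at 238 TPM in the gland, the highest of all 59 libraries, and Thrsp at 3158 TPM, below every depot. Scd1 stood at 166 TPM in the gland, against 2439 TPM in the lowest depot, and Fasn at 227 TPM, against 715 TPM.

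In the test of the Harderian gland over the fat depots, Elovl6 fell by 6.74 ± 1.13 on the log2 scale (edgeR, adjusted p = 0.0092), and it was called under every alternative run. It was the 1 gene of 10 called lower, where 0.213% of all genes were called lower and 2.08% higher, and 0 of the 10 were called higher. Scd1 had a log2 fold change of -6.50 ± 2.60 (adjusted p = 0.268) and was called by DESeq2 (-6.63, adjusted p = 0.000526). Acly (0.22 ± 1.04), Me1 (0.22 ± 1.69), Srebf1 (0.77 ± 0.85) and Pnpla3 (0.81 ± 1.38) lay within 1 SE of 0, and Fasn had -2.13 ± 1.37. Adiponectin was at 2.93 TPM in the gland, and the 11 adipocyte markers summed to 91.9 TPM, against 42651 to 76455 TPM in the depots. Even so, Adipoq (-12.06 ± 4.78) and Plin1 (-13.22 ± 3.98) were not called, while Fabp4 (-10.24 ± 2.38) and Lpl (-10.39 ± 2.30) were. A gene not called in this test may thus still be lower in the gland.

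The gland also differed in the partners of these genes. Of 24 other synthesis genes 2 were called higher and 0 lower, with a list median of 1.15, against 0.01 over all genes. Large falls of Scd2 (-5.79 ± 1.52), Scd3 (-6.23 ± 1.84) and Fads3 (-5.73 ± 1.59) were not called. Elovl5, an elongase of polyunsaturated fatty acids, stood at 2281 TPM in the gland, against 26.1 to 63.3 TPM in the depots (log2 fold change 5.66 ± 0.75, adjusted p = 0.00285). Hsd17b12, the reductase of the elongation cycle, stood at 3228 TPM, against 82.7 to 218 TPM (4.69 ± 1.11, adjusted p = 0.0432). Elovl3 reached 4530 TPM in the gland, its highest level. Of 19 regulators 1 fell and 0 rose. Mlxipl fell by 6.93 and stood at 4.51 TPM in the gland, against 354 to 788 TPM in the depots. Of 23 triglyceride genes 3 rose and 1 fell: Plin2 by 5.10, Abhd5 by 4.99, Mogat1, which was at 1104 TPM in the gland and listed at 0 in all 3 depots, and Gpat4, which fell by 4.26. None of the 9 NADPH genes was called.

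The sciatic nerve exceeded other replicated sites in 3 of the genes, with a wide gap between its animals. Elovl6 stood at 100 TPM in the sciatic nerve of T3F and 42.2 TPM in that of T426. Acaca stood at 74.6 TPM in T3F and 25.9 TPM in T426, and Scd1 at 186 TPM in T3F and 8.42 TPM in T426. Over the mean of the 8 other replicated sites, Elovl6 rose by 2.35 ± 0.39 (edgeR, adjusted p = 0.00217), Scd1 by 3.35 ± 0.90 (adjusted p = 0.0400) and Acaca by 1.66 ± 0.44 (adjusted p = 0.0402). Fasn had 2.19 ± 0.63 (adjusted p = 0.0556). Of all tested genes 6.40% were called higher and 0.326% lower, and 0 of the 10 were called lower. Falls were hard to call in this test too, and Me1 had -2.50 ± 1.40 (edgeR, adjusted p = 0.458). With the animal as a block, Scd1 had 3.81 (adjusted p = 0.0512). Without the 3 libraries with germ cell genes Acaca was not called (1.54, adjusted p = 0.167).

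These calls depend on the library of T3F. Without it 0 of the 10 were called, with log2 fold changes of 1.49 for Elovl6, 0.59 for Acaca and -0.35 for Scd1, and without the nerve of T426 4 were called. Elovl6 alone was left without either library of hippocampus, duodenum, renal pelvis or skeletal muscle, without retina T426 or without ovary T3F, and 4 genes were called without either library of pancreas. Elovl6 and 1 other gene were called without either femur, the retinas of T3F or ovary T173F. Adipoq, Plin1 and Cidec, which mark adipocytes, were higher in T3F, at 759, 34.6 and 137 TPM, than in T426, at 48.2, 1.99 and 4.90 TPM, and the 11 adipocyte markers summed to 2948 TPM in T3F, with 10 at 1 TPM or more, and to 611 TPM in T426, with 9. Over the other replicated sites 4 of these 11 were called higher, with a list median of 2.18. Prx, a gene of myelinating Schwann cells, stood at 6263 TPM in T3F and 1703 TPM in T426. Of 13 markers of myelinating Schwann cells all 13 were called higher, with a list median of 7.84. Skeletal muscle markers were also higher in the nerve: 8 of 9 were called over the other replicated sites, with Ckm by 5.19 and Myh4 by 6.49. They summed to 8787 TPM in T3F and 1756 TPM in T426. Of 8 tested pancreatic acinar markers 7 were called higher in the nerve, with Ctrb1 by 8.10. TPM is a share of the library total, which these transcripts enter. The part of any of these cell types in the results was not tested.

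Other desaturase and elongase genes were also higher in the nerve. Of 24 other synthesis genes 5 rose over the other replicated sites and 0 fell, among them Scd2, the main desaturase of nervous tissue in mouse, by 4.19 (4565 TPM in T3F and 1223 TPM in T426), Scd3 by 3.49, the citrate carrier Slc25a1 by 2.05 and the elongase Elovl1 by 2.36. Of 22 tested triglyceride genes 2 rose, Plin1 by 4.83 and Cidec by 3.72, both of the adipocyte list. None of the 19 regulators or 9 NADPH genes was called. An F statistic near 0 left Scd4, of the synthesis list, at -4.11 ± 11006.11, where the SE is no measure of spread. A count of 0 that fell is thus no result about a list here either. The median over the 10 genes was 1.51, against -0.05 over all genes.

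Against the fat depots the nerve was lower in all 10 genes by sign, and 5 were called. Of all tested genes 0.791% were called lower and 3.13% higher, and 0 of the 10 were called higher. Scd1 fell by 7.59 ± 1.97 (adjusted p = 0.0484), Fasn by 5.10 ± 1.20 (adjusted p = 0.0320), Acaca by 3.18 ± 0.74 (adjusted p = 0.0302), Acacb by 4.38 ± 0.96 (adjusted p = 0.0237) and Acly by 4.38 ± 1.02 (adjusted p = 0.0301). Elovl6 had the smallest difference, at -2.14 ± 0.63 (adjusted p = 0.0843). Thrsp stood at 337 TPM in the nerve of T3F and 7.67 TPM, from 2 counts, in that of T426, and had -6.59 ± 1.97 (adjusted p = 0.0866). Of the lists, 7 of 23 triglyceride genes fell, with Dgat1 by 3.24, G0s2 by 5.60, Plin4 by 4.99 and Gpam by 3.04, as did Pparg by 5.54, Mlxipl by 4.51 and Tkt by 3.78, while Elovl7 rose by 5.36. The count was 10 by DESeq2 and without either pancreas library, 3 without either skeletal muscle, 2 without either hippocampus, 1 without mesentery, and 0 without either sciatic nerve or brown fat. Without the 3 libraries with germ cell genes 2 were called, Scd1 and Acly. With the animal as a block Scd1 had -6.90 (adjusted p = 0.0575). Skeletal muscle markers were called higher over fat in 8 of 9 cases, and summed to 25.5 to 75.1 TPM in the depots.

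In the hepatocyte-rich libraries Thrsp, Scd1 and Acacb stood above their overall medians in both, and Acly, Acaca, Me1 and Pnpla3 under theirs. Thrsp stood at 888 TPM in liver T426 and 874 TPM in the library labelled lung T3F, next in order after the depots, the 2 other libraries with adiponectin and the Harderian gland. Scd1 stood at 575 TPM in liver T426 and 105 TPM in the library labelled lung. Fasn stood at 16.0 TPM in liver T426, near the overall median of 15.8 TPM, and at 1.98 TPM in the library labelled lung. Acly was low in both, at 6.10 TPM in liver T426 and 1.97 TPM in the library labelled lung, against an overall median of 36.9 TPM. Elovl6 was lower in liver T426 (16.0 TPM) than in the library labelled lung (35.1 TPM), and so was Pnpla3, at 2.22 TPM, from 4.14 expected counts, against 8.25 TPM. The 2 libraries thus differ by 8.07 times in Fasn and by 1.02 times in Thrsp, and they come from different animals under different labels.

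Each was tested against the same fat depot libraries, which all these comparisons share. In liver T426 1 of 10 genes was called, Acly, which fell by 6.17 ± 1.56 on the log2 scale (edgeR, adjusted p = 0.0407), where 0.868% of all genes were called lower and 3.24% higher. Pnpla3 had -7.68 ± 2.34 (adjusted p = 0.0866), Fasn -4.82 ± 1.63 (adjusted p = 0.126), and Acacb, at 25.8 TPM in liver T426, -0.41 ± 1.02 (adjusted p = 1). In the library labelled lung 3 genes were called lower. Acly fell by 7.79 ± 1.68 (adjusted p = 0.0189), Fasn fell by 7.82 ± 1.91 (adjusted p = 0.0335) and Acaca fell by 4.74 ± 1.11 (adjusted p = 0.0269), where 1.16% of all genes were called lower and 3.65% higher. None of the 10 was called higher in either. The call of Acly in liver T426 was lost without any single library of hippocampus, duodenum, renal pelvis, skeletal muscle, ovary or fat, and 5 genes were called without either pancreas library. In the library labelled lung, Acly alone was called without mesentery and without the 3 libraries with germ cell genes, where Fasn had -7.83 (adjusted p = 0.0546) and Acaca -4.75 (adjusted p = 0.0620).

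Few of the listed partner genes were called in these libraries, where large differences could go uncalled. In liver T426 the adipocyte markers Adipoq (-19.44 ± 7.44) and Plin1 (-18.85 ± 5.73) were not called, while Fabp4 (-10.84 ± 2.47) and Lpl (-11.10 ± 2.40) were. A gene not called may thus still differ from fat. Elovl2, an elongase of polyunsaturated fatty acids, rose in both, by 5.82 in liver T426 and by 7.18 in the library labelled lung, and Fads3 fell by 7.25 in liver T426 and fell by 6.51 in the library labelled lung. Plin4 fell by 8.08 in liver T426 and by 7.75 in the library labelled lung. In the library labelled lung Hacd3 rose by 2.88 and Scd2 fell by 6.28, Tkt fell by 6.23, Prkaa2, a catalytic subunit of AMP-activated kinase, rose by 4.37, and the lipases Pnpla2 and Lipe fell by 4.78 and 7.94. Fold changes are relative to TMM scaling, which moved the median gene with a mean of at least 10 TPM, against log2(TPM + 1), by 0.92 in liver T426 and 0.98 in the library labelled lung, -0.45 in sciatic nerve over fat, -0.57 in sciatic nerve over other sites, -0.12 in the Harderian gland and 0.21 in fat over all other sites.

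**Figure D4:**
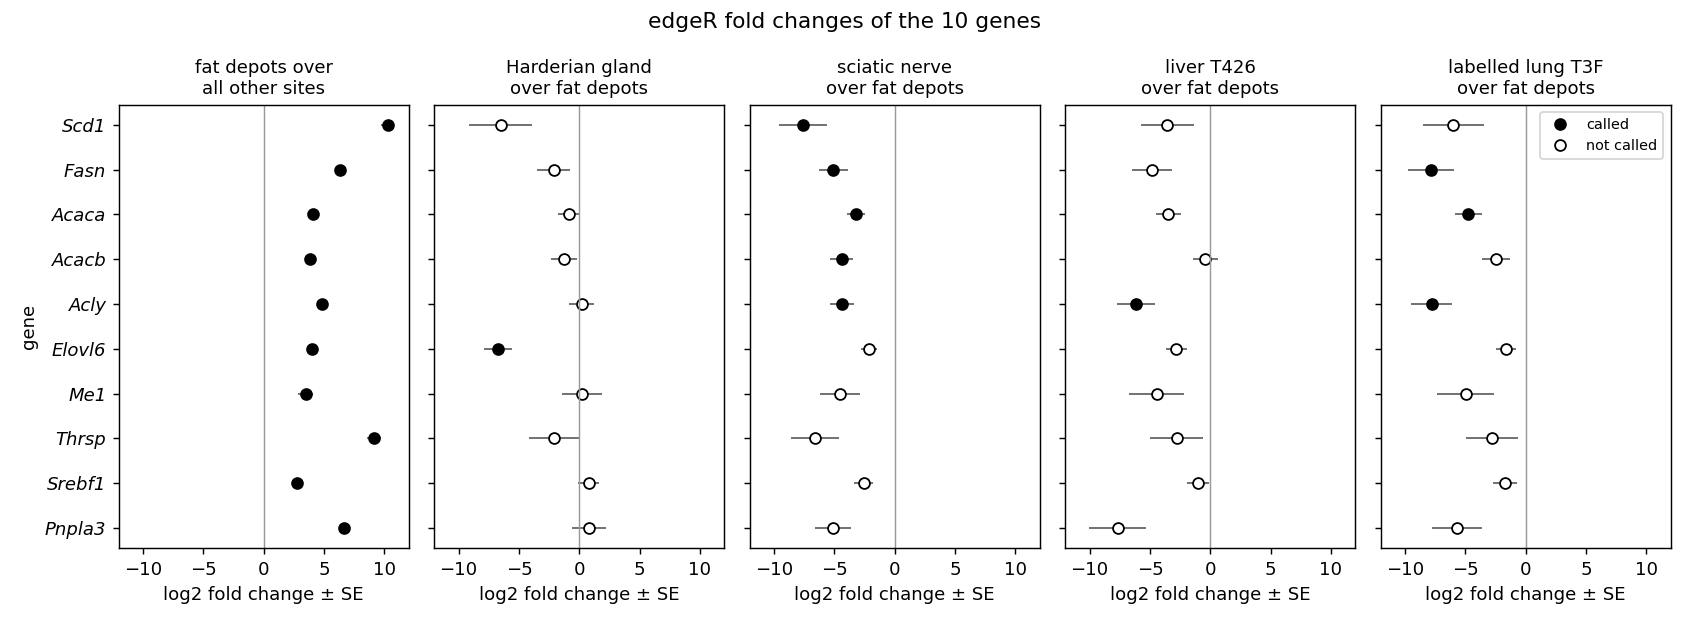
Log2 fold changes of the 10 genes in 5 edgeR comparisons, filled where called and open where not. Bars are SEs from the fold change and F statistic, and those of fat over all other sites understate the spread of single depots. All 10 are filled and positive in fat over all other sites, Elovl6 is the 1 filled gene for the Harderian gland, and 5, 1 and 3 are filled for sciatic nerve, liver T426 and the library labelled lung T3F, all negative.

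Over the 9 sites with 2 animals, 4 of the 10 genes differed among sites in a joint test, where 44.3% of all genes did. They were Scd1 (edgeR, adjusted p = 0.0031), Acacb (adjusted p = 0.00404), Elovl6 (adjusted p = 0.000601) and Me1 (adjusted p = 0.0307). Fasn missed the threshold at 0.0528, and Srebf1 had the highest adjusted p, at 0.848. A share of 4 in 10 is near that of all genes. When animal entered the fit as a block, 3 of these were called, without Me1, and likewise without the 3 libraries with germ cell genes.

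Single genes of the set were high at sites where the others were not. Pnpla3 stood at 480 TPM in cornea, 225 TPM in non-glandular stomach and 119 TPM in the esophagus junction. Me1 stood at 1480 TPM in ovary T3F and 103 TPM in ovary T173F, and at 555 TPM in pancreas T173F and 0.645 TPM in pancreas T3F. The renal pelvis had Me1 at 354 TPM in T173F and 141 TPM in T426. Srebf1 stood at 132 TPM in the retinal pigment epithelium (RPE), above brown fat. Optic nerve, whose myelin is made by oligodendrocytes, had Elovl6 at 79.1 TPM and Thrsp at 292 TPM. Of these sites, ovary, pancreas and renal pelvis entered the joint test in which Me1 was called, and the others have 1 library and were not tested singly.

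Outside fat the genes did not follow adipocyte markers closely. Across all 59 libraries the Spearman correlation with the mean of the 11 adipocyte markers ran from 0.06 for Elovl6 to 0.49 for Scd1. In the 48 libraries other than fat, Harderian gland, sciatic nerve and hepatocyte-rich ones and those labelled liver, adrenal adipose and kidney artery, it ran from -0.30 for Elovl6 to 0.30 for Acacb. These libraries share animals, and the correlations are descriptions.

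**Figure D5:**
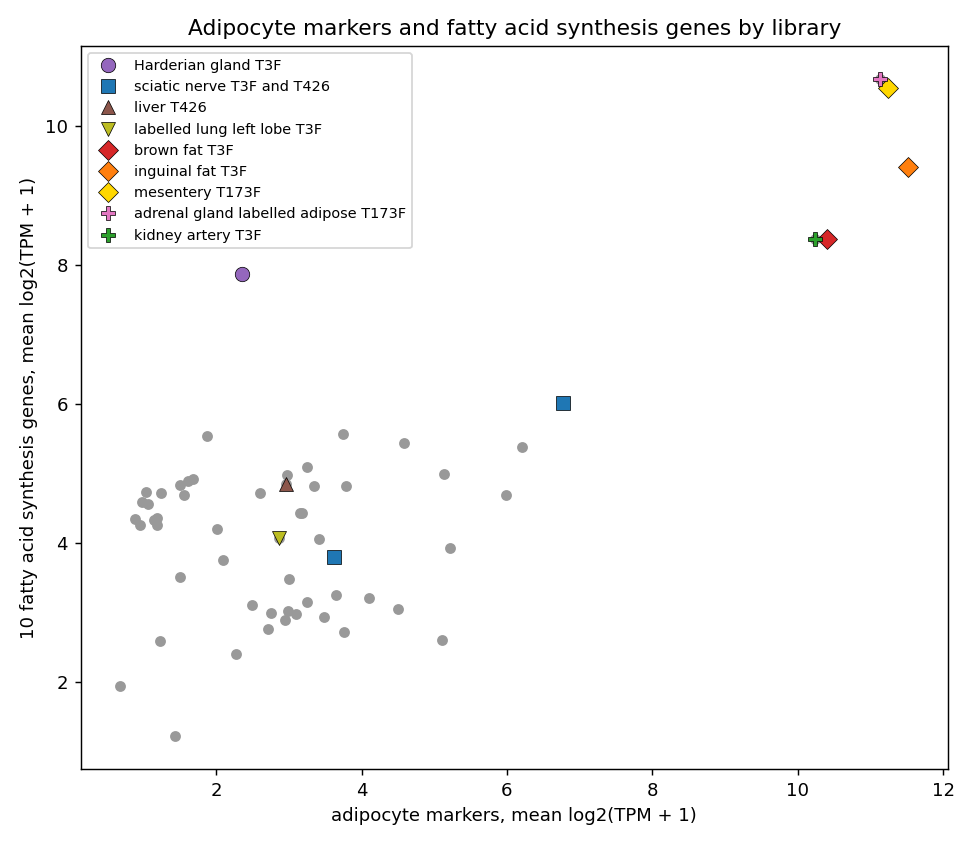
Mean log2(TPM + 1) of the 10 genes against that of 11 adipocyte markers, with 1 point per library and grey for libraries without a symbol. The fat depots and the 2 libraries with adiponectin stand at the upper right, the Harderian gland stands at 7.87 with few adipocyte markers, and the other libraries show no common line.

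The genes also varied together among themselves. Over the 59 libraries the median Spearman correlation of the 45 pairs was 0.49, from 0.02 for Acacb and Elovl6 to 0.90 for Acaca and Acly. In the 48 libraries it was 0.39, from -0.23 for Acacb and Elovl6 to 0.87 for Fasn and Acly. Among 15107 other genes with a mean of at least 5 TPM, the nearest in pattern to Acaca were Lhpp (0.86), Scd2 (0.84) and Pex14 (0.82). For Acly they were Pex14 and Aacs (0.84 each) and BC048403 (0.82), and for Fasn Aacs (0.82), Scd2 (0.79) and Pex14 (0.76). Aacs encodes acetoacetyl-CoA synthetase, which feeds ketone bodies into lipid synthesis. Acacb was nearest to Pla2g12a (0.84), Coq8a (0.77) and B3gnt8 (0.75), of which Coq8a serves coenzyme Q synthesis in mitochondria. Elovl6 was nearest to the sterol genes Hsd17b7 (0.74) and Hmgcs1 (0.73) and to Acbd4 (0.72), and Srebf1 to Ctsl and Csad (0.81 each). Thrsp was nearest to Rbp4 (0.73), Cdo1 (0.70) and Mup5 (0.65), Pnpla3 to Tecr (0.71), Pex14 (0.69) and Ctnnbip1 (0.68), Me1 to Nfe2l1 and Acsbg1 (0.65 each) and Mocs3 (0.64), and Scd1 to Slc11a1 and Scd3 (0.66 each) and Lbp (0.65). Depth, shared animals and tissue mixtures are common to all these libraries.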

How the data were processed

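Polyadenylated RNA of 59 tissue biopsies was prepared with a TruSeq kit and sequenced in paired ends, per the labels' protocols. The authors deposited 1 table of expected counts, estimated counts that need not be whole, and 1 of TPM, whose columns sum to 1000000. The submitters' processing notes name RSEM and Bowtie 0.12.8. The genome build is not given in the sources used here, and no sequence was used. Totals were lowest in T424 (678819 counts) and T426 (1691561 to 3827321), where low levels are least precise.

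Expected counts were rounded and tested with edgeR 4.0.16 in R 4.3.3 (quasi-likelihood test, TMM, filterByExpr, Benjamini-Hochberg adjustment over all genes). Both retinas of T3F were summed. The dispersion trend came from 18 libraries of 9 sites with 2 animals. A lone library was assumed to vary like them, and p-values measure only that spread. DESeq2 1.42.0 and limma 3.58.1 were alternatives. TPM was not tested except by limma, with pseudocounts of 1 and 0.1.

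Animals pair libraries across sites, as the titles name them. Differences between T3F and T426 correlated between sites with a median of 0.16 (-0.04 to 0.85, 9 of 15 site pairs above 0.1). The highest were hippocampus with retina (0.85), femur with hippocampus (0.67) and femur with retina (0.66). At these sites the T426 libraries held germ cell genes. Genes named are the 10 members, for each the 3 genes of highest Spearman correlation among those with a mean of at least 5 TPM, up to 4 called genes per list and comparison with the smallest adjusted p, and markers. Members and lists were chosen with earlier results of these data known. Some items that these rules would name are not reported here.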

Additional observations from a re-analysis of the deposited data

How the results depend on the processing

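All 10 genes rose in fat under edgeR with DESeq2 size factors, without a filter on low counts, with DESeq2's test, with the animal as a replicate block, in the reduced set (without pancreas T173F and the library labelled liver T3F), and in 2 settings chosen after seeing the data: without kidney artery and the adrenal gland labelled adipose among the other sites, and with that adrenal gland library as an added depot. With limma 9 rose. For the Harderian gland over fat, 2 were called by DESeq2 and 1 otherwise. For sciatic nerve over fat the count of 5 became 10 by DESeq2 and in the reduced set, 4 with the block, 7 with the added depot, and 0 to 10 when leaving out 1 library. For liver T426 over fat the count of 1 became 6 by DESeq2 and 5 by limma at both pseudocounts and in the reduced set, and 0 to 5 with 1 library left out. For the library labelled lung it was 3 in the main test, 7 by DESeq2, 5 by limma on log2(TPM + 1), and 1 to 4 with 1 library left out. For sciatic nerve over other sites 3 became 1 with DESeq2 size factors and with limma at both pseudocounts, 2 with the block, and 0 to 4 with 1 library left out, when Scd1 ran from -0.35 to 4.30. In the joint test 4 became 8 by DESeq2, 7 by limma on log2(TPM + 0.1), 3 with the block, and 3 to 6 with 1 library left out. The block changed no other call among the 10 genes. Over all genes DESeq2 called 4342 in fat (edgeR 1505), 2664 in the Harderian gland (421), 2897 in sciatic nerve over fat (718), 2445 in liver T426 (752) and 3435 in the library labelled lung (880), and the block called 456 in liver T426. Without the 3 T426 libraries with germ cell genes, chosen after seeing the data, counts among the 10 genes were 10 in fat, 1 in the Harderian gland, 2 in sciatic nerve over fat, 1 in liver T426, 1 in the library labelled lung, 2 in sciatic nerve over other sites and 3 in the joint test, and all-gene counts were 245 in the Harderian gland and 393 in sciatic nerve over fat. In fat 1321 genes were higher and 184 lower by edgeR, against 798 and 1392 by limma on log2(TPM + 1). Brown fat over inguinal fat could not be fitted without either library. Over 70 fold changes and 2050 alternative values, 104 calls were lost, 69 gained and 1 reversed, and 17 uncalled values changed sign; the cause was not tested. By log2 CPM the highest library was the same for 3 of 10 genes and for 5 it was mesentery in place of the adrenal gland labelled adipose. The 6 highest libraries were the same by summed TPM and by mean rank.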
